A study of Homo sapiens with 8 samples.

Results

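The 10 genes described here encode enzymes that make, lengthen and desaturate fatty acids. They were taken by gene symbol from the 15852 genes of the deposited count table, and all 10 were found and passed the filter on low counts. RNA was measured in KYSE150, an established cell line of human esophageal squamous cell carcinoma, in 4 libraries labelled ShBOLA3-L (BOLA3-L knockdown) and 4 labelled Control, with no other treatment in either group. The series concerns the inclusion of exon 3 of BOLA3, a gene whose product helps to insert iron-sulfur clusters into mitochondrial proteins, and the knockdown targets the isoform called BOLA3-L. How many hairpins were used, and whether the libraries of a group came from separate cultures, is not stated. The p-values therefore measure the spread between these libraries, which may be technical, and describe 1 cell line.

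Cells build fatty acids in the cytosol from citrate. ATP citrate lyase (ACLY) releases acetyl-CoA, acetyl-CoA carboxylase (ACACA) turns it into malonyl-CoA, and fatty acid synthase (FASN) joins these units into palmitate. At the endoplasmic reticulum each further lengthening runs through a condensing enzyme of the ELOVL family, a ketoreductase (HSD17B12), a dehydratase of the HACD family and an enoyl reductase (TECR). ELOVL6 prefers saturated chains of palmitate length, ELOVL1 and ELOVL7 act on longer saturated chains, and ELOVL5 acts on polyunsaturated ones. FADS1 and FADS2 are front-end desaturases, which place double bonds between an existing one and the carboxyl end, whereas SCD puts the first double bond into saturated chains. Transcription of many of these genes depends on SREBP-1, the product of SREBF1.

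After knockdown the synthesis genes FASN and ACLY fell, and the elongation genes ELOVL7, ELOVL6 and HACD3 rose. Thus 3 of the 10 genes rose and 2 fell at an adjusted p under 0.05 (edgeR's quasi-likelihood test with Benjamini-Hochberg adjustment over 11841 tested genes), and 5 were not called. Over all tested genes 15.0% rose and 15.6% fell. The median log2 change was 0.05 for the 10 genes and 0.0014 for all tested genes. ELOVL7 had the largest change, 1.55-fold, and FASN the largest fall, to 0.752 of control.

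The promoters of the genes that rose and of ACLY are given here because SREBP-1 and its partner NF-Y act at such regions. RefSeq promoters on GRCh38.p14, running from 250 bases before the start site to 50 bases after it, were matched for 9 of the 10 genes, all but FASN. The regions are chr17:41918973-41919272 for ACLY, chr4:110198566-110198865 for ELOVL6 and chr5:60844220-60844519 for ELOVL7, all on the minus strand, and chr15:65530213-65530512 for HACD3 on the plus strand, each written 5′ to 3′ on the gene's strand. For ACLY and ELOVL6 the start site used lies inside the annotated gene span. Capitals mark CCAAT boxes, the NF-Y motif, on either strand (CCAAT or ATTGG).
ACLY: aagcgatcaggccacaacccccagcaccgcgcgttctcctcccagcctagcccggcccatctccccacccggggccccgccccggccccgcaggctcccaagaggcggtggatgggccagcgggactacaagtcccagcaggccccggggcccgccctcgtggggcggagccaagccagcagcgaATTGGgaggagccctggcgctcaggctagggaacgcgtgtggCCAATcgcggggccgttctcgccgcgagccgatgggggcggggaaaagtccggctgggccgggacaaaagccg
ELOVL6: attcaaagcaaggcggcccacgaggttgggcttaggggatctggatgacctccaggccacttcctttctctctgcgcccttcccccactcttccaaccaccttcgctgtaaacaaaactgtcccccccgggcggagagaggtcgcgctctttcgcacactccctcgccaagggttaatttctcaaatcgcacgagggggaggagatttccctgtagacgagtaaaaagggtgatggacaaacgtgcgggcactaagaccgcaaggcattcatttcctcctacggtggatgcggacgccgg
ELOVL7: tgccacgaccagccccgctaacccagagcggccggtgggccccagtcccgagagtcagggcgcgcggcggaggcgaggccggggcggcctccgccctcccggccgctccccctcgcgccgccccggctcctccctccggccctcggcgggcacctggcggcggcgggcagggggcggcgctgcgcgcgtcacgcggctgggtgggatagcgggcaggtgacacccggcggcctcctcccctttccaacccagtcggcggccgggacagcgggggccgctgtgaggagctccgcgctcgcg
HACD3: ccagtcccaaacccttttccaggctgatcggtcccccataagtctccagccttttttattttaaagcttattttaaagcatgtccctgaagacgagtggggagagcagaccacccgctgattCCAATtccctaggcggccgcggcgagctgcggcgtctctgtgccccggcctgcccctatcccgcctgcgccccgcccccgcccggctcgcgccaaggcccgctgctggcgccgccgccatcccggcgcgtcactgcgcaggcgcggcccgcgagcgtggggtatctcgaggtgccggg
ACLY had 2 CCAAT boxes, HACD3 had 1, and ELOVL6 and ELOVL7 had none in these windows. Among the 9 matched promoters 4 held a CCAAT box (ACLY, ELOVL1, ELOVL5 and HACD3), against 34.6% of 35116 promoters of the same length. The sterol regulatory element core searched here, TCACNCCAC with N for any base, was in 0 of the 9 and in 1.13% of all promoters. The GC box GGGCGG was in 7 of the 9 (45% of all), and the palindromic E-box CACGTG in 1, that of ELOVL5 (7.26% of all). All motifs were sought on both strands, and in ELOVL1 a GC box shared 2 bases with the CCAAT box. A CCAAT box was thus found both for ACLY, which fell, and for HACD3, which rose. A match is only a run of letters, not a shown binding site.

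The libraries held 31178036 to 35147860 counts over all genes. BOLA3 itself averaged 6.58 ± 0.531 CPM in the knockdown libraries and 20.8 ± 1.26 CPM in the controls (SD, n = 4 each), a log2 change of -1.66 (SE 0.0821, edgeR adjusted p 6.9e-11). CPM are counts scaled to a common library total with TMM factors. The counts are per gene and do not separate BOLA3-L from other isoforms, and fewer cells of a kind and less RNA per cell cannot be told apart in bulk RNA. BOLA3-L knockdown replicate 1 stood apart from the rest: its score on the second principal component was 20.1, against -10.1 to 1.79 in the other 7 libraries. Its counts also fell with transcript GC content, by 0.121 on the log2 scale for every 10 percentage points, where the other libraries ran between -0.0135 and 0.0596. Of the 10 genes, 6 had their highest knockdown value in that library and 3 their lowest. Without it, 4 of the 10 genes rose and 3 fell, while over all genes 2526 rose and 2555 fell, against 1777 and 1853 with it. All 7 tested squamous epithelium markers fell, against 15.6% of all tested genes. Their 8 listed genes summed to 2615 to 2941 CPM in knockdown libraries and 4356 to 4388 CPM in controls. KRT5, the basal keratin, still averaged 1936 CPM after knockdown and 3132 CPM in controls, whereas SOX2 was too low to be tested. Their part in the results was not tested. No adipocyte marker passed the filter, and the 3 in the table (PLIN1, FABP4 and CIDEC) summed to 0.116 to 0.382 CPM in knockdown libraries and 0.126 to 0.395 CPM in controls.

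Of the 3 genes that lead from citrate to palmitate, FASN and ACLY fell and ACACA just missed the threshold. In each of the 3 every knockdown library lay below every control library, as in 15.6% of all tested genes. FASN (identifier 2194, chromosome 17, 82078338 to 82098236) stood at 451, 554, 593 and 583 CPM in knockdown replicates 1 to 4, against 685, 739, 739 and 738 CPM in control replicates 1 to 4. The lowest value of each group was replicate 1. The mean fell to 545 ± 64.7 CPM in knockdown libraries, against 725 ± 26.8 CPM in controls (SD, n = 4 each), which is a log2 change of -0.41 (SE 0.0676, edgeR adjusted p 0.000459). FASN transcripts are rich in G and C, with 65.3% in the longest transcript, the highest of the 10 genes. The log2 change of FASN was -0.33 without BOLA3-L knockdown replicate 1 and -0.43 with offsets corrected for GC content, and it was called in both fits.

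ACLY (identifier 47, chromosome 17, 41866917 to 41930545) stood at 334, 354, 361 and 360 CPM in knockdown replicates 1 to 4, against 386, 385, 392.3 and 395 CPM in control replicates 1 to 4. The gap was narrow but free of overlap: means of 352 ± 12.6 CPM in knockdown libraries and 390 ± 4.97 CPM in controls (SD, n = 4 each) gave a log2 change of -0.15 (SE 0.0341, edgeR adjusted p 0.00309). ACACA (identifier 31, chromosome 17, 37084992 to 37406836), whose product is the regulated entry step of the pathway, stood at 294, 275, 294 and 286 CPM in knockdown replicates 1 to 4, against 297, 307, 309 and 310 CPM in control replicates 1 to 4. Its groups nearly touched, knockdown replicates 1 and 3 lying just under control replicate 1. Its mean was 287 ± 8.8 CPM in knockdown libraries and 306 ± 6.03 CPM in controls (SD, n = 4 each). The log2 change of ACACA was -0.09 (SE 0.0345) and missed the threshold (edgeR adjusted p 0.053), but passed it without BOLA3-L knockdown replicate 1 (-0.10, adjusted p 0.00235).

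**Figure D1:**
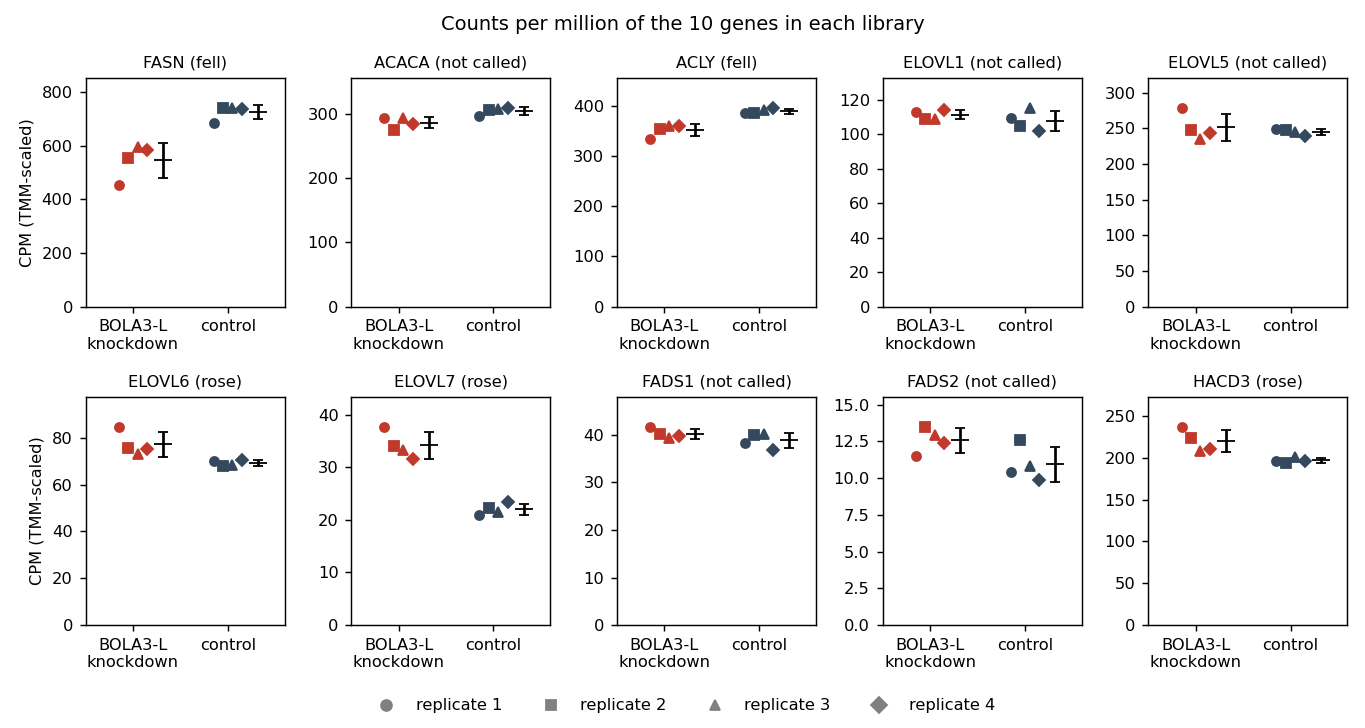
CPM (TMM-scaled, linear axes from 0) of each gene in 4 BOLA3-L knockdown and 4 control libraries, with marker shapes for replicate numbers and the mean ± SD beside the points. FASN, ACACA and ACLY show no overlap with the knockdown libraries lower, and ELOVL6, ELOVL7 and HACD3 show none with the knockdown libraries higher.

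Within the synthesis arm FASN changed more than ACACA and ACLY. FASN counts were 1.54, 2.01, 2.02 and 2.04 times those of ACACA in knockdown replicates 1 to 4, against 2.31, 2.4, 2.39 and 2.38 times in control replicates 1 to 4. This ratio, which needs no scaling between libraries, was lower by 0.33 on the log2 scale (-0.33), and the groups did not overlap. FASN counts were 1.35, 1.56, 1.64 and 1.62 times those of ACLY in knockdown libraries and 1.77, 1.92, 1.88 and 1.87 times in controls, a log2 difference of -0.27, again with no overlap. An exact two-sided permutation test over 70 assignments gave p = 0.0286 for each, the smallest it allows with 4 against 4, and 0.0357 after Benjamini-Hochberg adjustment over the 5 ratios examined. Without BOLA3-L knockdown replicate 1 the FASN/ACACA difference was -0.23 and the FASN/ACLY difference -0.21. A ratio within a library does not remove a GC trend, and the ratios were not corrected for GC content. The longest transcripts held 65.3% G and C for FASN, 48.7% for ACACA and 52.2% for ACLY.

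Elongation genes were higher or showed no call. ELOVL7 (identifier 79993, chromosome 5, 60751791 to 60844269) stood at 37.7, 34.1, 33.3 and 31.5 CPM in knockdown replicates 1 to 4, against 20.9, 22.2, 21.6 and 23.4 CPM in control replicates 1 to 4. Every knockdown library was well above every control library, and the gap between the groups was wider than the spread within either. The mean was 34.1 ± 2.62 CPM after knockdown and 22.0 ± 1.06 CPM in controls (SD, n = 4 each), a log2 change of 0.63 (SE 0.0641, edgeR adjusted p 6.5e-07), which ranked it 161st by p among the tested genes. These values rest on 1070 to 1203 counts per knockdown library and 647 to 770 per control library. ELOVL7 has the lowest GC content of the 10 genes, 36.4%, and its log2 change was 0.58 without BOLA3-L knockdown replicate 1 and 0.64 with GC-corrected offsets.

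ELOVL6 (identifier 79071, chromosome 4, 110045846 to 110199202), which lengthens the product of FASN, stood at 84.7, 75.4, 73.0 and 75.4 CPM in knockdown replicates 1 to 4, against 70.3, 67.8, 68.5 and 70.4 CPM in control replicates 1 to 4. Knockdown replicate 1 was the highest of all, and the other 3 stood just above the controls. The mean was 77.1 ± 5.19 CPM after knockdown and 69.2 ± 1.32 CPM in controls (SD, n = 4 each). ELOVL6 changed by 0.16 on the log2 scale (SE 0.0488, edgeR adjusted p 0.0211). Without BOLA3-L knockdown replicate 1 the log2 change was smaller, 0.11, and still called (edgeR adjusted p 0.0161). The rise nearly kept its size but lost its call without control replicate 2 (0.15, adjusted p 0.0615) or control replicate 3 (0.15, adjusted p 0.0626). Over all alternatives run, the adjusted p of ELOVL6 ranged from 0.000524 to 0.0626.

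HACD3 (identifier 51495, chromosome 15, 65530463 to 65578349), a dehydratase of the elongation cycle, stood at 237, 224, 209 and 210 CPM in knockdown replicates 1 to 4, against 197, 194, 201 and 197 CPM in control replicates 1 to 4. Its groups did not overlap, as in ELOVL6 and ELOVL7, and 14.6% of all tested genes had every knockdown library above every control. Its mean was 220 ± 13.4 CPM after knockdown and 197 ± 3.07 CPM in controls (SD, n = 4 each). HACD3 rose by 0.16 on the log2 scale (SE 0.0416, edgeR adjusted p 0.00727), close in size to ELOVL6, and by 0.12 without BOLA3-L knockdown replicate 1.

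The elongases ELOVL1 and ELOVL5 overlapped between the groups. ELOVL1 (identifier 64834, chromosome 1, 43363401 to 43368011) ranged from 109 to 114 CPM in knockdown libraries and from 102 to 115 CPM in controls, a log2 change of 0.05 (SE 0.0438, edgeR adjusted p 0.463). ELOVL5 (identifier 60481, chromosome 6, 53267404 to 53348950) ranged from 235 to 278 CPM in knockdown libraries and from 239 to 248 CPM in controls, and its log2 change of 0.04 (SE 0.0445, edgeR adjusted p 0.569) was also uncalled. Its highest value, 278 CPM, was knockdown replicate 1, and without that library the log2 change was -0.01.

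Within a library, ELOVL7 counts were 0.334, 0.314, 0.305 and 0.276 of those of ELOVL1 in knockdown replicates 1 to 4, against 0.191, 0.212, 0.187 and 0.23 in control replicates 1 to 4. The log2 ratio was higher by 0.58 with no overlap, and ELOVL6 over ELOVL5 was higher by 0.12, also with no overlap. Both gave p = 0.0286 in the exact two-sided permutation test (0.0357 adjusted over the 5 ratios). For ELOVL6 over ELOVL5 the adjusted p was 0.0714 when any single knockdown library was left out. The elongases of a pair thus changed by unequal factors.

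**Figure D2:**
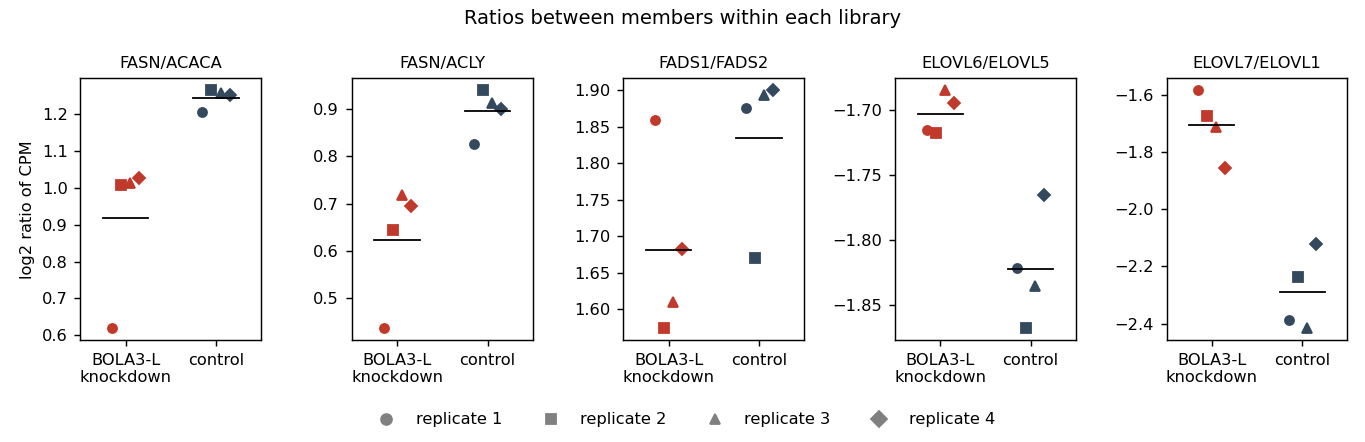
Log2 ratio of CPM between pairs of genes within each library, BOLA3-L knockdown left of control, with marker shapes for replicate numbers and a line at each group mean. The groups are apart in 4 of the 5 ratios and overlap for FADS1/FADS2, and knockdown replicate 1 is lowest for both FASN ratios.

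The front-end desaturases showed no call. FADS1 (identifier 3992, chromosome 11, 61799627 to 61817003), the delta-5 desaturase, ranged from 39.4 to 41.8 CPM in knockdown libraries and from 36.9 to 40.3 CPM in controls, with a log2 change of 0.05 (SE 0.051, edgeR adjusted p 0.481). FADS2 (identifier 9415, chromosome 11, 61816203 to 61867354), the delta-6 desaturase, stood at 11.5, 13.5, 12.9 and 12.4 CPM in knockdown replicates 1 to 4, against 10.4, 12.6, 10.8 and 9.88 CPM in control replicates 1 to 4. Control replicate 2 reached the knockdown range, while the other 3 controls lay below every knockdown library. The log2 change of FADS2 was 0.20 (SE 0.0884, edgeR adjusted p 0.0901), from 323 to 476 counts per library. It was called without that control library (0.28, adjusted p 0.0321). Leaving out BOLA3-L knockdown replicate 1 instead gave 0.25, also called (adjusted p 0.0176).

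FADS1 and FADS2 lie head to head on opposite strands and their gene spans overlap by 801 bases. In GENCODE v29 they share 490 exonic bases, 4.79% of those of FADS1 and 4.44% of those of FADS2, and no source states whether counting used the strand, so reads there cannot be assigned with certainty. The FADS1 to FADS2 count ratio was 3.63, 2.98, 3.05 and 3.21 in knockdown replicates 1 to 4, against 3.67, 3.18, 3.72 and 3.73 in control replicates 1 to 4. The groups overlapped (log2 difference -0.15, exact two-sided permutation p = 0.0857). No other pair among the 10 genes shared exons. ACLY shares 156 exonic bases (2.99% of its own) with an antisense gene, AC125257.2, that is not in the count table. FADS2 shares 49 exonic bases (0.44% of its own) on the same strand with FEN1, which had 36349 counts over all libraries, against 3108 for FADS2. Of the 10 genes' longest transcripts, 0 of the 75-base windows, taken every 25 bases, occurred in transcripts of another gene. Only the transcript's own strand was searched, so this could not show overlaps on opposite strands. Nor could it show the FEN1 overlap, which is shorter than a window.

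**Figure D3:**
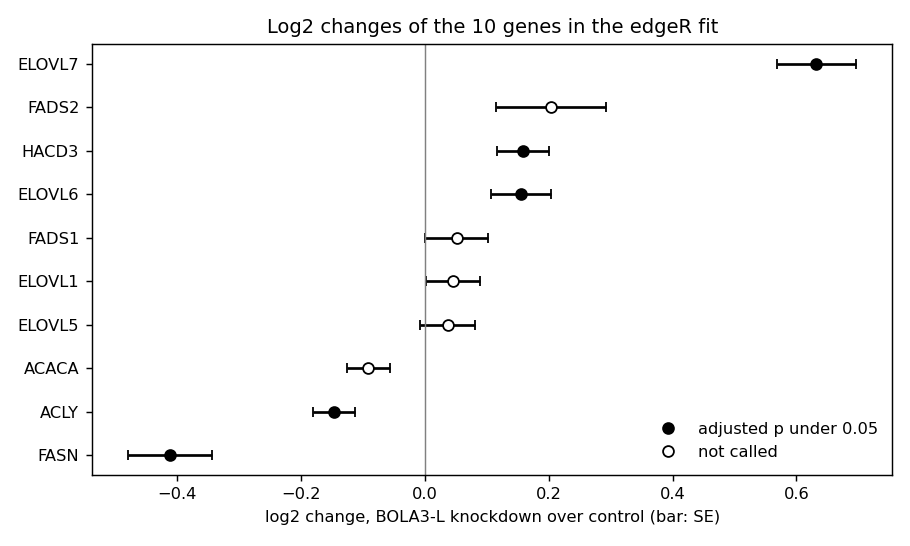
Log2 change of BOLA3-L knockdown over control with its SE for the 10 genes in the edgeR fit, filled where the adjusted p is under 0.05. The values run from -0.41 for FASN to 0.63 for ELOVL7, with 2 called falls and 3 called rises.

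Per kilobase of gene, the 10 levels spanned a wide range, and the order of their means changed near the top. In the deposited FPKM, ACLY averaged 79.1 ± 2.64 in knockdown libraries and 86.4 ± 1.09 in controls, and FASN 64.8 ± 7.55 in knockdown libraries and 85.1 ± 3.22 in controls (SD, n = 4 each). In controls FASN was second to ACLY, their ranges overlapped, and FASN lay above the next gene, ELOVL5, in 4 of 4 libraries. After knockdown it was the fifth by its mean, in a group with ELOVL5 (68.1 ± 5.29 FPKM), HACD3 (67.8 ± 4.28 FPKM) and ELOVL1 (66.0 ± 1.65 FPKM) whose ranges overlapped from each gene to the next. FASN stood at 54.0, 65.6, 70.6 and 69.1 FPKM in knockdown replicates 1 to 4. In replicate 1, the library set apart above, ELOVL5 was 75.7, HACD3 73.5 and ELOVL1 67.4 FPKM. ELOVL1 lay above FASN in 1 of 4 knockdown libraries. In knockdown replicates 3 and 4 FASN lay above ELOVL5, HACD3 and ELOVL1. In controls ELOVL5 averaged 65.4 ± 1.08, HACD3 59.9 ± 0.899 and ELOVL1 63.1 ± 3.41 FPKM.

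The lower levels kept their order in both groups. ACACA averaged 25.7 ± 0.87 FPKM in knockdown libraries and 27.0 ± 0.553 FPKM in controls, and ELOVL6 11.6 ± 0.816 FPKM after knockdown and 10.3 ± 0.186 FPKM in controls. FADS1 averaged 8.93 ± 0.255 FPKM after knockdown and 8.495 ± 0.353 FPKM in controls. ELOVL7 and FADS2 were the least abundant. ELOVL7 averaged 5.75 ± 0.459 FPKM in knockdown libraries and 3.66 ± 0.178 FPKM in controls, and FADS2 3.53 ± 0.226 FPKM in knockdown libraries and 3.03 ± 0.325 FPKM in controls. In controls the ranges of these 2 genes overlapped, and in knockdown libraries they did not. Within a library ELOVL7 lay above FADS2 in 4 of 4 controls and in 4 of 4 knockdown libraries.

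**Figure D4:**
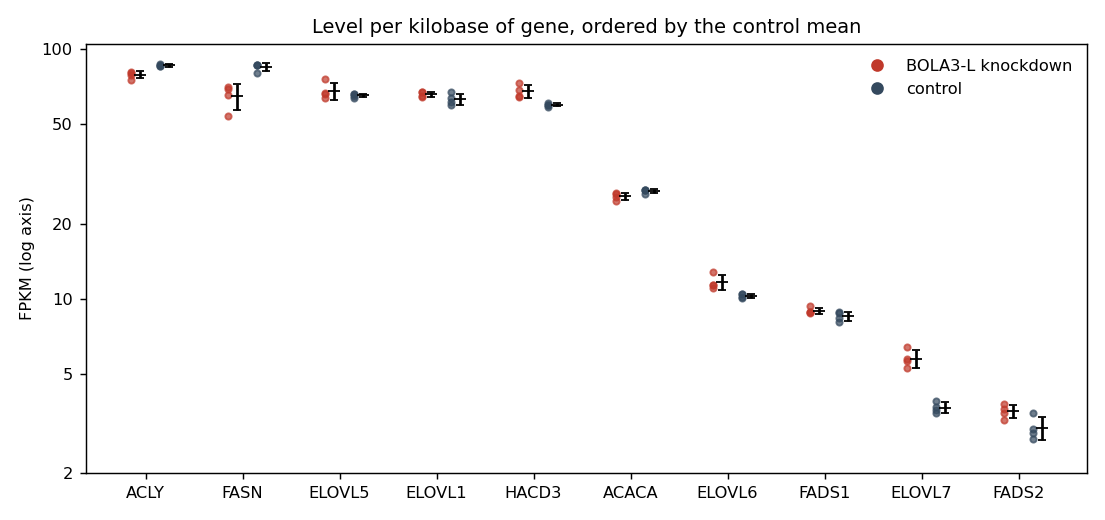
FPKM on a log axis for the 10 genes, ordered by the control mean, with each library as a point and the mean ± SD beside it, BOLA3-L knockdown left of control. FASN is level with ACLY in controls and, apart from its low knockdown replicate 1, with ELOVL5, HACD3 and ELOVL1 after knockdown. The ranges of ELOVL7 and FADS2 overlap in controls but not after knockdown.

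Other genes of the same pathways also moved in both directions. Of 26 listed genes 22 were in the table and 15 were tested, of which 3 rose and 4 fell, with a median log2 change of 0.00. Over all tested genes 15.0% rose and 15.6% fell. SCD, the delta-9 desaturase (chromosome 10, 100347233 to 100364826), stood at 267, 232, 233 and 229 CPM in knockdown replicates 1 to 4, against 701, 690, 704 and 698 CPM in control replicates 1 to 4, a log2 change of -1.54 (SE 0.0428, edgeR adjusted p 2.0e-14). It was the most changed of the list, whereas SCD5, the other human delta-9 desaturase, rose (61.9 ± 3.92 CPM in knockdown libraries and 49.7 ± 2.18 CPM in controls, SD, n = 4 each, log2 change 0.32).

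The remaining falls were FADS3 (log2 change -0.24), a relative of FADS1 and FADS2, MID1IP1 (-0.33), which promotes polymerization of acetyl-CoA carboxylase, and the electron donor cytochrome b5 type B, CYB5B (-0.15). HACD2, another dehydratase of elongation, rose by a log2 change of 0.15, close to that of HACD3, but lost the call without control replicate 1 (adjusted p 0.067) or control replicate 2 (adjusted p 0.0677) and in limma with no minimum (adjusted p 0.0753). Its log2 change was 0.10 without BOLA3-L knockdown replicate 1. MLYCD, which degrades malonyl-CoA, rose by 0.34. Among further enzymes of the elongation cycle, named after their values were seen, HSD17B12 had a log2 change of 0.03, TECR 0.04 and the dehydratase HACD1 0.08, and none of these was called.

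Among 19 tested regulators of lipogenic transcription 1 rose and 6 fell, with a median log2 change of -0.06. The shares over all tested genes were 15.0% and 15.6%. SREBF1, which encodes SREBP-1, stood at 74.8, 82.9, 85.4 and 87.7 CPM in knockdown replicates 1 to 4, against 139, 150, 143 and 144 CPM in control replicates 1 to 4, a log2 change of -0.80 (SE 0.0477, edgeR adjusted p 7.0e-10). The groups were far apart, and the log2 change was -0.755 without BOLA3-L knockdown replicate 1. INSIG1, which retains the SREBP escort SCAP in the endoplasmic reticulum, fell by 0.64 on the log2 scale, and SREBF2, which encodes the regulator of sterol genes, by 0.15. The site-2 protease MBTPS2, which releases the SREBPs from the membrane, fell by 0.36. Of the NF-Y subunits, NFYC fell by 0.33, NFYB rose by 0.30 and NFYA, at a log2 change of 0.01, was not called. Without BOLA3-L knockdown replicate 1, which raised the calls over all genes as given above, 3 regulators rose and 7 fell.

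**Figure D5:**
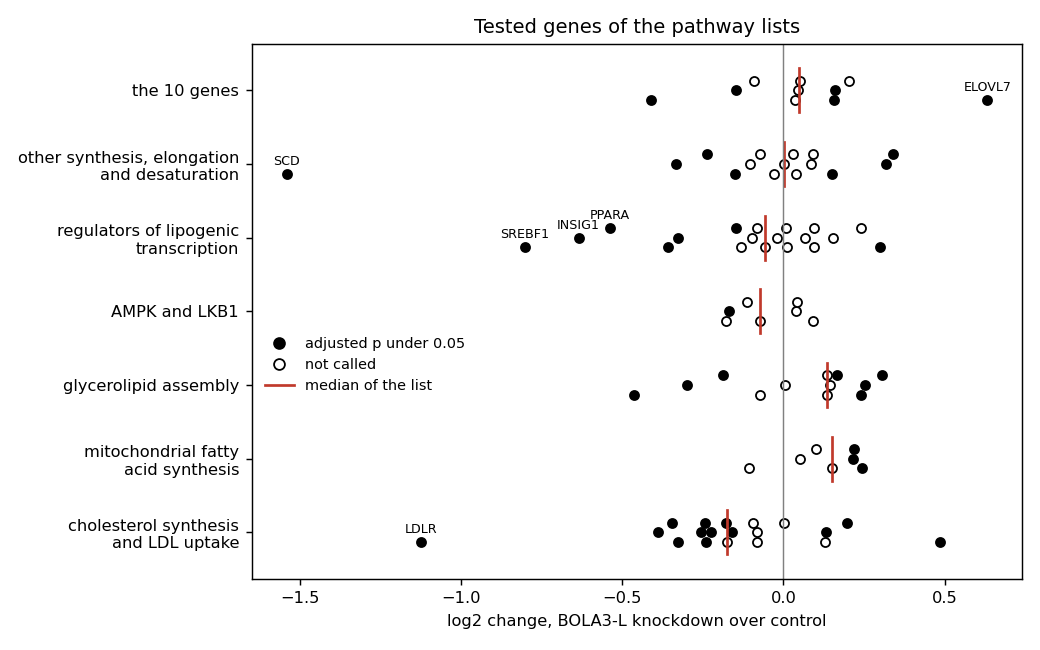
Log2 change of BOLA3-L knockdown over control for every tested gene of the 10 and of 6 lists of related genes, filled where the adjusted p is under 0.05, with the list median as a line and names where the absolute log2 change is above 0.5. SCD at -1.54 and SREBF1 at -0.80 lie farther from 0 than any of the 10 genes, and ELOVL7 at 0.63 is the highest value plotted.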

How the data were processed

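Polyadenylated RNA was sequenced as 150 bp paired-end reads and filtered with fastp, per the labels' protocols and design text. The build is hg38, per the submitters' processing notes. Aligner, counter and annotation release were not given in the sources used here. A deposited table of counts holds whole-number read counts per gene, not normalized. The deposited FPKM table was made by the authors from these counts: all 110558 values above 0 equal the count over the library total and 1 length per gene within a relative tolerance of 1e-06.

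Counts were scaled by TMM and filtered with filterByExpr, leaving 11841 genes. Groups were compared by edgeR's quasi-likelihood test (robust), adjusted by Benjamini-Hochberg over these genes. SE is the absolute log2 change over the square root of F. DESeq2, limma on log2(FPKM + 1), other scalings and filters, and leaving out each library were alternatives. The fits were tested on simulated data. Ratios were compared by exact permutation. Positions are from RefSeq (GRCh38.p14), exons, GC content (for 97.3% of the table's genes) and shared sequence from GENCODE v29.

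The genes, lists and alternatives were chosen with earlier results of these data known. GC-corrected offsets were added after seeing the data. The text names BOLA3, the 10 genes, SREBF1, SREBF2, SCD and INSIG1, and from each list up to 4 called genes per direction by smallest p. Some are not described. Versions were DESeq2 1.42.0, edgeR 4.0.16 and limma 3.58.1 in R 4.3.3, with Python 3.11.15.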

Additional observations from a re-analysis of the deposited data

Results flagged for a closer look

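In 6 of 108 sets of 4 libraries, 1 library lay so far from the other 3 that Dixon's test marked it at its 95% critical value. Chance marks about 1 in 20. FASN in control replicate 1 was 684.8 CPM, where the other controls lay between 737.5 and 739.2 CPM. The log2 ratio of FASN to ACACA in BOLA3-L knockdown replicate 1 was 0.62, against 1.01 to 1.03 in the other knockdown libraries. The log2 ratio of FADS1 to FADS2 in control replicate 2 was 1.67, against 1.88 to 1.90 in the other controls.

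SCD in BOLA3-L knockdown replicate 1 was 266.7 CPM, against 229.4 to 232.7 CPM in the other knockdown libraries, and SCD5 there was 67.78 CPM, against 59.68 to 60.62 CPM. AGPAT3, an acyltransferase of phospholipid synthesis, was 68.76 CPM in that library, against 74.1 to 74.99 CPM in the others. Thus 4 of the 6 marks fell on that library, whose GC trend and distance from the rest are given above. The part of either in these values was not tested.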

How the results depend on the processing

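FASN, ACLY, ELOVL7 and HACD3 kept their direction and call under all 19 alternatives, with log2 changes of -0.45 to -0.33, -0.16 to -0.12, 0.53 to 0.67 and 0.12 to 0.18. ELOVL6 (0.11 to 0.18) kept its call under 17. ACACA was called under 5 of the 19 (minimum of 1 CPM, DESeq2, without BOLA3-L knockdown replicate 1 and both fits with GC-corrected offsets) and FADS2 under 4. ELOVL5 ranged from -0.0138 (without BOLA3-L knockdown replicate 1) to 0.0679 when single libraries were left out, never called. Across alternatives 2 to 4 of the 10 genes rose and 2 to 3 fell, while over all genes 1409 to 2526 rose and 1326 to 2586 fell. The ELOVL6/ELOVL5 difference ranged from 0.104 to 0.138 with single libraries left out, and its adjusted p missed 0.05 without any 1 knockdown library (0.0714). Without a knockdown library the difference was still 0.113 to 0.124, and the groups did not overlap. With 3 against 4 the test has 35 assignments, so its p moves in coarse steps. The other ratios kept their side of the threshold when single libraries were left out or FPKM was used.

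Same-numbered libraries showed no clear pairing, though this cannot show that they were prepared separately. Correlations of same-numbered deviations ran from -0.0444 to 0.0876, and those of different-numbered ones from -0.0701 to 0.0691. With the replicate block, 3 of the 10 genes rose and 2 fell, the same 5 genes, and over all genes 1656 rose and 1736 fell. CBR4 (adjusted p 0.0576) and MCAT (0.0593) lost their calls in that fit. Within pairs no ratio can reach an exact p under 0.125, so the 4 ratios past the threshold are above it there.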

Other observations

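Genes that use fatty acids for glycerolipids moved both ways. Of 12 tested genes of glycerolipid assembly 4 rose and 3 fell, with a median log2 change of 0.13. Over all tested genes 15.0% rose and 15.6% fell. The phosphatidic acid phosphatase LPIN1 fell by 0.46 on the log2 scale and AGPAT2, an acyltransferase, by 0.30, while the acyltransferases AGPAT3 and AGPAT5 rose by 0.24 and 0.30 and the phosphatase LPIN2 by 0.25. AGPAT2 lost its call in limma with no minimum (adjusted p 0.055). The phosphatase LPIN3 fell by 0.19 and lost its call without control replicate 2 (adjusted p 0.0607) or 3 (adjusted p 0.0506) and in limma with no minimum (adjusted p 0.0588).

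Mitochondria have their own fatty acid synthesis, separate from FASN, which supplies octanoate for lipoic acid. Of its 7 tested genes 3 rose and 0 fell in edgeR, with a median log2 change of 0.15. The shares over all tested genes were 15.0% and 15.6%. With only 7 genes, 0 falls lies near the latter share. DESeq2 likewise had 0 falls, and 0 genes fell at an unadjusted p under 0.05. The acyl carrier protein NDUFAB1 rose by 0.24 (edgeR adjusted p 0.00205), and the reductase subunit CBR4 and the malonyl transferase MCAT by 0.22 each. CBR4 and MCAT lost their calls, leaving 1, with the replicate block or without control replicate 1, control replicate 2 or knockdown replicate 2. Each also lost its call under some other alternatives. Of 7 tested subunits of AMPK, the kinase that inactivates acetyl-CoA carboxylase, and its activator LKB1, PRKAB2 fell (-0.17) and 0 rose in edgeR. DESeq2 had 0 rises, as had an unadjusted p under 0.05, but with no filter on low counts 1 of 8 genes rose in edgeR. PRKAB2 lost its call without control replicate 2 (adjusted p 0.0652) or knockdown replicate 2 (adjusted p 0.0577) and in the limma fits, and 3 genes of that list fell without BOLA3-L knockdown replicate 1, where falls over all genes numbered 2555, against 1853 with it.

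Of 19 tested genes of cholesterol synthesis and LDL uptake 3 rose and 10 fell, with a median log2 change of -0.17. Over all tested genes 15.0% rose and 15.6% fell. Among markers of other cell types, the 6 fibroblast genes summed to 4.25 to 6.999 CPM in knockdown libraries and 9.85 to 14.8 CPM in controls, the 6 leukocyte genes to 74.5 to 80.2 and 78.2 to 84.9 CPM, and the 4 endothelium genes to 1.87 to 2.44 and 0.88 to 1.82 CPM. Of these, COL1A1 and LUM fell among 2 tested fibroblast genes and CDH5 rose as the 1 tested endothelium gene, while the 2 tested leukocyte genes were not called. LUM overlapped between the groups and lost its call without control replicate 2 (adjusted p 0.0579), control replicate 3 (0.0657) or knockdown replicate 2 (0.0623) and in limma with no minimum (0.0504). Their part in the results above was not tested.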
